A study of Mus musculus with 29 samples.

Results

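The genes described here are 10 genes of white fat cells: Adipoq, Lep, Plin1, Cidec, Fabp4, Pparg, Lipe, Retn, Cfd and Lpl. They were taken by symbol from the count table, which holds 24421 genes, and all 10 passed the filter on low counts in every comparison. The libraries came from a mouse model of peritoneal dissemination of gastric cancer, in which YTN16 mouse gastric cancer cells were placed in the peritoneal cavity of female C57BL/6J mice of 5 to 6 weeks of age on day 0. Every mouse received these cells, so there was no group that had never been given tumour. Immune checkpoint inhibitors (ICI) are antibodies that release a brake on T cells. Mice received anti-PD1 at 10 mg/kg, anti-CTLA4 at 5 mg/kg, both (dual ICI) or PBS (untreated) into the peritoneal cavity on days 5, 8 and 12, and the mice kept longer also on days 21 and 28.

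Tissue taken on day 21 (3wk) came from 5 untreated mice and 5 mice given dual ICI. That taken on day 35 (5wk) came from 5 untreated mice, 5 given anti-PD1, 4 given anti-CTLA4 and 5 given dual ICI, of which 2 were uncured and 3 cured. The paper treated 5 mice with anti-CTLA4 and left out 1 that died before autopsy, so that group holds survivors only. In the paper, cured meant that the peritoneal dissemination was gone by 5wk. The labels name the tissue as tumour, and the methods describe peritoneum stripped with or without nodules, so each library is a bulk mixture of abdominal wall, any tumour present and any fat that came with it. The cured and uncured groups rest on reading the number in a library's title as the number of the mouse whose outcome was recorded, which the labels do not state. 1 of the anti-PD1 mice was also cured, and the labels do not say which. In bulk tissue, fewer fat cells and less RNA per fat cell cannot be told apart.

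White fat cells store triglyceride in a large lipid droplet and secrete hormones. Adiponectin (Adipoq), leptin (Lep), resistin (Retn) and adipsin, which is complement factor D (Cfd), are secreted proteins of fat, and leptin follows the size of the fat store. Perilipin 1 (Plin1) and Cidec coat the droplet, hormone-sensitive lipase (Lipe) breaks down its lipid, lipoprotein lipase (Lpl) releases fatty acids from circulating lipoproteins, and Fabp4 carries fatty acids inside the cell. Pparg encodes the nuclear receptor that drives fat cell formation. Several of these genes are not restricted to fat: Lpl is also made by muscle and macrophages, Fabp4 by capillary endothelium and macrophages, and Pparg by macrophages and some epithelia. Around the peritoneum, fat lies in the omentum, the mesentery and the abdominal wall.

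The libraries held 25989217 to 31219650 counts. They differed in tissue make-up. The 3 dual ICI-cured libraries held 140 to 221 normalised counts (CPM, scaled to library size) summed over 24 gastric epithelium genes, against 1557 to 4920 in the untreated 5wk libraries, and 4 to 8 of those 24 genes were at 0, with Gkn1, Gkn2, Tff1 and Muc5ac at 0 in all 3. They also held 326124 to 364014 CPM summed over 22 skeletal muscle genes, against 59735 to 292956. Anti-PD1 mouse 5 lay with them on both lists, at 172 and 337922 CPM. In those 4 libraries the summed gastric epithelium genes, markers of the implanted tumour's tissue of origin, were thus lower than in the other 25 libraries (1115 CPM or more) although all are labelled as tumour tissue, and values that rest on anti-PD1 mouse 5 are given with and without it.

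The 10 genes lie on chromosomes 3, 6, 7, 8, 10 and 16 of GRCm38. Lep spans chr6:29060220-29073877 and Plin1 spans chr7:79720218-79732903, while Pparg, at chr6:115360951-115490399, has several start sites. RefSeq start regions (GRCm38.p6) were found for 8 of the 10, Fabp4 and Lpl having no entry, and the 250 bases before each start were searched for TTGCNNAA on either strand, a spelling of the site bound by C/EBP factors, which act with Pparg in fat cell formation. These letters occurred in 9.56% of 32851 start regions of that length and in 4 of the 12 start regions of the 8 genes, 1 each of Lep, Plin1, Cidec and Pparg. A direct repeat bound by Pparg with its partner, AGGTCANAGGTCA, occurred in 0.0335% of the regions and in none of the 8 genes. The regions of Lep and Plin1, which had the largest and most often called differences below, and of Pparg, which moved against the others, are shown with that of Adipoq, the reference gene for ratios. They run 5′ to 3′ on the gene's strand, with the TTGCNNAA matches of either strand in capitals and any bases inside an annotated exon left out.
Lep, chr6:29059971-29060219, plus strand: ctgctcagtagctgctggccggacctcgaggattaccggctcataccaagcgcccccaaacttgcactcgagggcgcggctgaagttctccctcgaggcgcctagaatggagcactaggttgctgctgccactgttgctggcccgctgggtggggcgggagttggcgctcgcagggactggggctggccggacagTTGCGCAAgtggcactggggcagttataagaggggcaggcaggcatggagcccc
Plin1, chr7:79732904-79733026, minus strand: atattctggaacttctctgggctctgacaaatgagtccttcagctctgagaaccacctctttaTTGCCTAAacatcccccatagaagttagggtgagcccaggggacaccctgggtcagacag
Pparg, the third start, chr6:115421816-115422065, plus strand: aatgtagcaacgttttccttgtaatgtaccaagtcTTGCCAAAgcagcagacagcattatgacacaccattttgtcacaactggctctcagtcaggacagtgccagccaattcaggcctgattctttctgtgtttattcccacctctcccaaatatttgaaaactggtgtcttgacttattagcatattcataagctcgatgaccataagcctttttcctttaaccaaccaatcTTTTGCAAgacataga
Adipoq, chr16:23146286-23146535, plus strand: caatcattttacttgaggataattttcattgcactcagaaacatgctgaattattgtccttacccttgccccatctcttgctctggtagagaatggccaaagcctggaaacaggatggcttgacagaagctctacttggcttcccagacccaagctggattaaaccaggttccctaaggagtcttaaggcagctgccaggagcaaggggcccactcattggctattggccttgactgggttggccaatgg
The match of Lep, TTGCGCAA, is its own reverse complement and begins 55 bases before the start site. The match shown for Plin1 begins 187 bases before the RefSeq start and a second begins 58 bases before it, in the part left out. Those of the third Pparg start begin 215 and 16 bases before it. A match is a description of letters and not a measured binding site.

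Lpl and Cfd were the most abundant of the 10 genes in CPM. Per kilobase of exons, Cfd was highest in all 7 groups, at 263 to 715 CPM per kilobase, and Lpl was second. Leptin was the lowest in 6 groups, and Pparg in the dual ICI-cured group, at 4.03 CPM per kilobase. Leptin also had few reads in some mice: 7 counts in anti-CTLA4 mouse 1, 11 in untreated 5wk mouse 1 and 12 in anti-PD1 mouse 3, against 1195 in untreated 3wk mouse 2.

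The dual ICI-uncured group had the lowest mean of 9 of the 10 genes, and the highest mean of the remaining one, Pparg. The dual ICI-cured group had the highest mean of Adipoq, Cidec, Fabp4, Lipe, Retn, Cfd and Lpl, and the untreated 3wk group that of Lep and Plin1. The highest group mean exceeded the lowest 16.0 times for Lep, 5.57 times for Lpl, 4.10 times for Retn and 2.25 to 3.72 times for the other 7. In this order of means, neighbouring groups overlapped in all but 3 steps: for Lpl, dual ICI-cured lay above untreated 3wk and anti-CTLA4 above dual ICI-uncured, and for Pparg, untreated 5wk lay above dual ICI-cured. Over the 21 pairs of groups, those without overlap numbered 8 for Lpl, 7 each for Lep and Plin1, 6 for Pparg, 4 for Lipe, 3 each for Adipoq and Retn, and 2 each for Cidec, Fabp4 and Cfd. Shares of all genes were not counted for these steps or over the 21 pairs, so the counts are a description. Between the small uncured and cured groups, 37.4% of all genes separated downwards and 43.7% upwards.

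**Figure D1:**
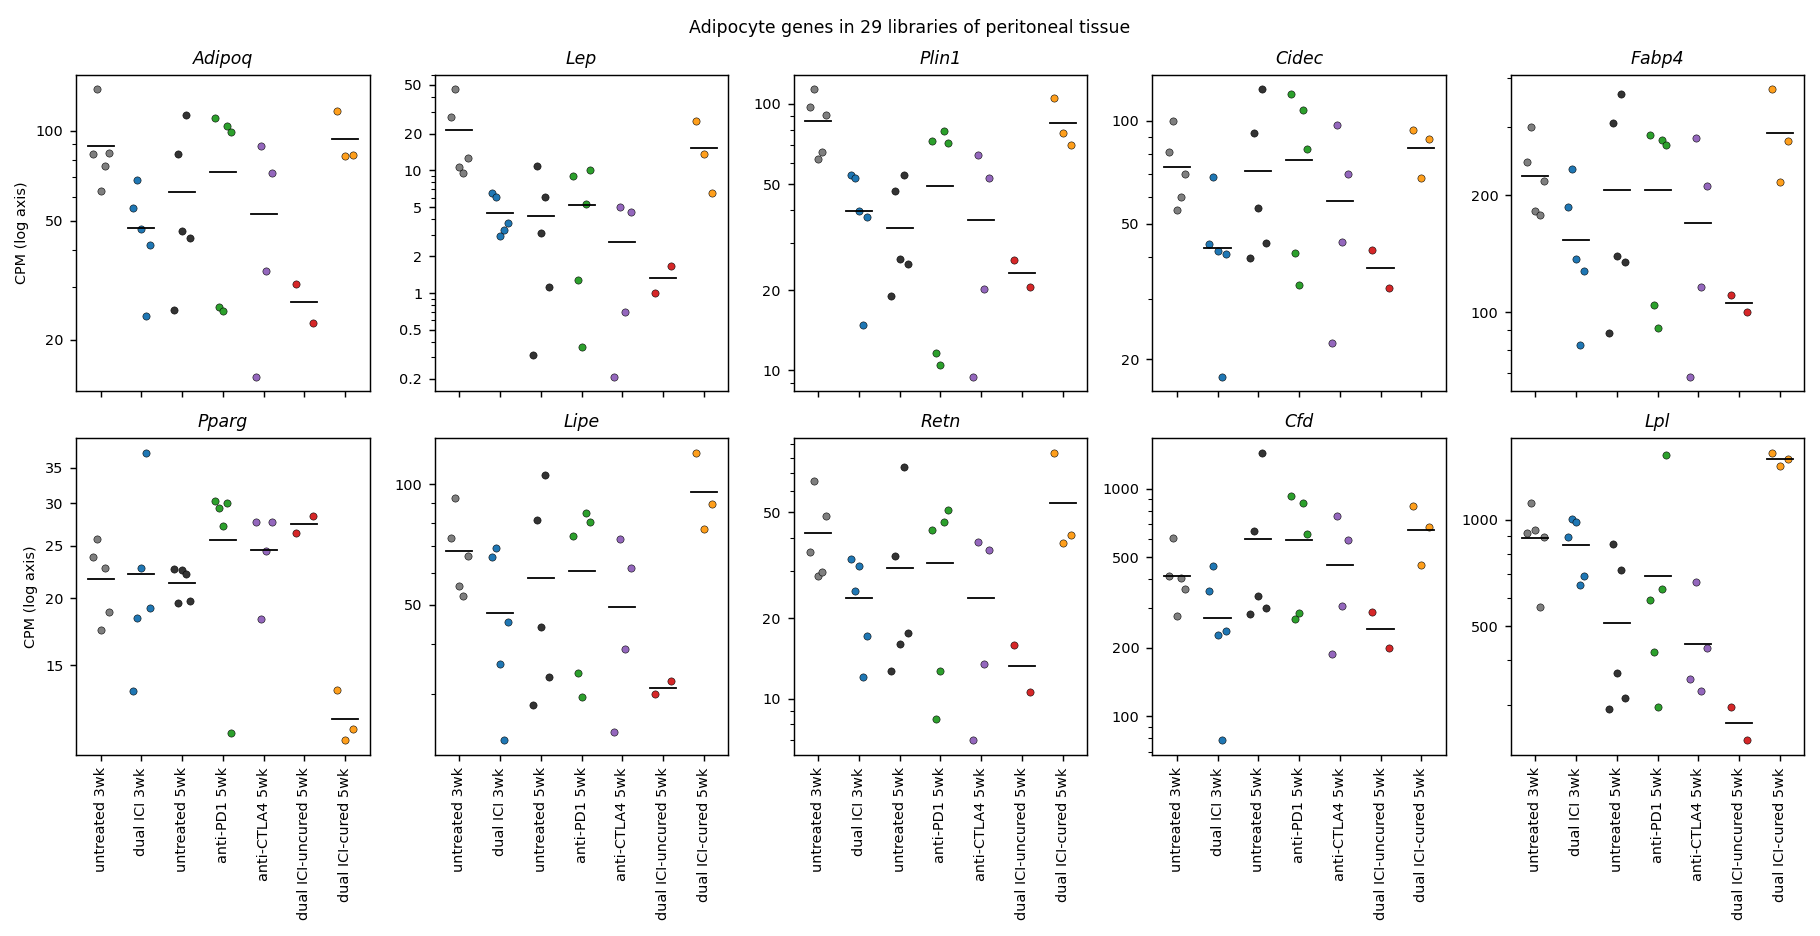
Level of each adipocyte gene in every library, with CPM on TMM-scaled library sizes on a log axis, 1 point per mouse and a bar at the group mean. The 3 dual ICI-cured mice and anti-PD1 mouse 5 were low in Pparg (10.9 to 13.5 CPM) and were the 4 highest in Lpl (1417 to 1547 CPM).

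Mice of one group differed widely at 5wk. The highest mouse exceeded the lowest by a median over the 10 genes of 3.93 times in the untreated, 4.03 times in the anti-PD1 and 4.23 times in the anti-CTLA4 group, against 1.90 times in the untreated and 2.84 times in the dual ICI group at 3wk. In the dual ICI-uncured and -cured groups, of 2 and 3 mice, it was 1.27 and 1.53 times. Leptin spread most, 34.4 times among untreated 5wk mice. Pparg spread least there, 1.16 times.

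The spread was shared among the genes. With each group's mean taken off, the log2 CPM of 8 genes followed that of Adipoq over the 29 libraries: Pearson's r was 0.97 for Fabp4 and Plin1, 0.96 for Cidec, 0.95 for Retn, 0.94 for Lipe, 0.92 for Cfd, 0.90 for Lep and 0.75 for Lpl, and Spearman's rho was 0.78 to 0.97. In 100000 permutations within groups, two-sided, 9 relations being tested, the adjusted p of r was 1.29e-05 for the first 7, whose raw p of 1e-05 was the smallest that the permutations can give, and 0.000157 for Lpl. Pparg did not follow Adipoq, with r of -0.32 (permutation p = 0.20) and rho of -0.15 (p = 0.51). Without the 2 libraries farthest from the Adipoq median, r was 0.89 to 0.97 for those 7, 0.78 for Lpl and -0.30 for Pparg. The genes share libraries, so the share of fat in a piece of tissue enters all of them. Among the 36 pairs of the 9 genes other than Pparg, r ranged from 0.65 to 0.98 with a median of 0.90, and between Pparg and those 9 it ranged from -0.54 to -0.23.

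Of 13281 other genes, the 8 most like the mean of the 10, by r over the 29 libraries with group means taken off and as a description, were Slc7a10 (0.956), Cdo1 (0.951), Hcar1 (0.943), Slc36a2 (0.935), Mgll (0.935), Ces1d (0.931), Tusc5 (0.930) and Adig (0.925). Mgll, which encodes monoglyceride lipase, was also on the list of droplet and lipolysis genes.

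At 3wk, the fat genes were lower in dual ICI than in untreated mice in the fitted values of 9 of the 10 genes, and none passed the test. Leptin measured 27.1, 46.3, 10.6, 9.44 and 12.7 CPM in the untreated mice and 6.58, 6.04, 2.94, 3.29 and 3.76 CPM in the dual ICI mice. Every dual ICI mouse lay below every untreated mouse. The log2 difference was -2.24 ± 0.46 (SE), with an adjusted p of 0.0585 (edgeR quasi-likelihood test, Benjamini-Hochberg over 15503 genes). Perilipin 1 measured 97.7, 114, 62.1, 66.1 and 91.2 CPM against 53.9, 52.6, 39.5, 14.8 and 37.7 CPM, also without overlap, and its log2 difference was -1.12 ± 0.30 (edgeR adjusted p = 0.153). Adiponectin measured 83.7, 138, 62.9, 76.5 and 84.5 CPM against 55.1, 68.6, 46.7, 24.0 and 41.5 CPM, so that only dual ICI mouse 2 reached above the lowest untreated mouse.

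Across the 10 genes at 3wk, the median log2 difference was -0.70, against 0.02 over all genes tested. None of the 10 was called, against 0.574% of all genes at an adjusted p under 0.05. The unadjusted p was under 0.05 for 5 members, all lower (Lep, Plin1, Adipoq at -0.92, Retn at -0.81 and Cidec at -0.79), against 4.67% of all genes, and a fitted value below 0 was found for 45.4% of all genes. Complete separation downwards, found for Lep and Plin1, occurred in 1.35% of all genes. Cfd (-0.61), Fabp4 (-0.55), Lipe (-0.52), Lpl (-0.06) and Pparg (0.04) had larger unadjusted p. By DESeq2's Wald test, Lep, Plin1 and Adipoq were called, and in edgeR without any one mouse none was. Dual ICI mouse 4 was lowest of its group in 8 of the 10 genes and highest in Pparg (37.3 CPM, the others 13.4 to 22.8 CPM).

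The other genes of fat metabolism at 3wk were read from lists made beside the 10. Rbp4, which encodes a retinol carrier of the blood, was the only gene of 9 such lists that was called, at -1.08 (edgeR adjusted p = 0.0275). Its call was lost without untreated mouse 1, 2, 4 or 5 or without dual ICI mouse 3 or 5, with an adjusted p of up to 0.0938. Of 20 genes of fatty acid and triglyceride synthesis, 19 had a fitted value below 0 with a median of -0.21, and none was called. T cell genes moved with the contrast: 11 genes summed to 56.6 to 102 CPM in dual ICI and 18.3 to 36.4 CPM in untreated mice, and 3 of the 11 were called higher. Macrophage genes summed to 2281 to 3911 CPM against 1846 to 2331 CPM, with a fitted value above 0 for all 12 and none called. Their part in the fat genes' values was not tested.

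Untreated mice at 5wk were compared with the same 5 untreated 3wk mice to follow the fat genes as the disease went on. Perilipin 1 fell: it measured 19.1, 47.3, 26.1, 53.9 and 25.1 CPM at 5wk, below all 5 untreated mice at 3wk (62.1 to 114 CPM). The log2 difference was -1.33 ± 0.30 (edgeR adjusted p = 0.0215), and 10.8% of all genes were called, 4.58% lower. It was the only 1 of the 10 called, and separation downwards occurred in 5.2% of all genes. Leptin measured 0.315, 10.8, 3.08, 6.09 and 1.12 CPM at 5wk, where the 3wk mice had 9.44 to 46.3 CPM. Only mouse 2 at 5wk overlapped with the 3wk mice, and the log2 difference of -2.32 ± 0.78 had an edgeR adjusted p of 0.0738.

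None of the other 8 genes was called. Adiponectin measured 25.2, 83.4, 46.1, 113 and 43.8 CPM at 5wk and spanned the range of the 3wk mice, with a log2 difference of -0.51 ± 0.37. Lpl, at 291, 854, 368, 723 and 313 CPM against 568 to 1114 CPM, differed by -0.79 ± 0.34 (edgeR adjusted p = 0.144). Cidec differed by -0.03, Pparg by -0.03, Fabp4 by -0.11, Lipe by -0.22 and Retn by -0.42, all overlapping. Cfd differed by 0.55 ± 0.45, which was -0.074 without untreated 5wk mouse 4, the mouse with 1439 CPM. The median of the 10 was -0.32, against 0.02 over all genes, and it ran from -0.70 (without untreated 5wk mouse 4) to -0.13 (without untreated 5wk mouse 1) when 1 mouse was left out. The call of Plin1 was lost without untreated 5wk mouse 5 or untreated 3wk mouse 1, 2 or 5 (adjusted p of 0.0519 to 0.0577) and in a fit of all 29 libraries (0.0819). Without untreated 5wk mouse 2, whose muscle genes were the highest of its group, Lep (-3.04, adjusted p = 0.0134), Plin1 (-1.48, 0.00624) and Lpl (-1.07, 0.0230) were called by edgeR. The codes in the column names fall into 2 series, one for each time point, and what they mark is not stated, so time point and anything that goes with the codes cannot be told apart.

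Of 20 genes of fat synthesis, 7 fell in untreated mice at 5wk and none rose, with a median of -0.82 over the 20, led by Scd1, the desaturase that makes monounsaturated fatty acids, at -2.99 ± 0.38 (edgeR adjusted p = 0.00338), and Fasn, fatty acid synthase, at -2.19 ± 0.33 (0.00620). Without untreated 5wk mouse 2, 13 of the 20 were called lower, and without any other single mouse at least 5. Over all genes, 4.58% were called lower and 6.24% higher with all mice kept. Of 13 droplet and lipolysis genes, 2 were called lower: Pnpla3 at -2.58 (edgeR adjusted p = 0.00212) and Fitm2 at -0.99 (0.0438). Of 13 transcription factors of fat cell formation, Ebf2 (-1.43), Zfp423 (-1.07) and 1 more were called lower and Cebpd (1.18) higher. Of 12 genes of fat cell progenitors, 4 were called lower, among them Dpp4 (-1.60) and Col15a1 (-1.02), and Icam1 (0.83) higher.

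Of 15 genes of fatty acid and glucose uptake and of the insulin response, 3 were called lower at 5wk, among them Irs1 (-1.42) and Cav1 (-0.93). Over all genes, 4.58% were called lower and 6.24% higher. Of 11 other secreted fat proteins only Retnla was called (-2.29), of 9 brown fat genes 1 and of 4 genes that act on lipoprotein lipase 1, all lower, and of 5 adipokine receptor genes none. These smaller lists depended on single mice. Without untreated 5wk mouse 2, the calls rose to 6 lower and 1 higher for droplet genes and to 8 lower for uptake genes. The calls of Fitm2, Retnla, Irs1, Cav1 and Icam1 were lost without untreated 5wk mouse 1, 3 or 5 or without untreated 3wk mouse 1, 2, 3 or 5, with an adjusted p of up to 0.118, all but Retnla also without untreated 5wk mouse 4 and Cav1 also without untreated 3wk mouse 4, and that of Dpp4 without untreated 5wk mouse 1, 3, 4 or 5 (up to 0.0791). Fibroblast genes fell too, 5 of 10 being called lower, and gastric epithelium genes were called higher for 3 of 21. Summed muscle genes had a median of 170806 CPM at 3wk (75901 to 187800) and 79192.5 CPM at 5wk (59735 to 292956). Irs1 and Lpl are also expressed by muscle. The part of the fibroblast, epithelial and muscle genes in the fat genes' values was not tested.

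**Figure D2:**
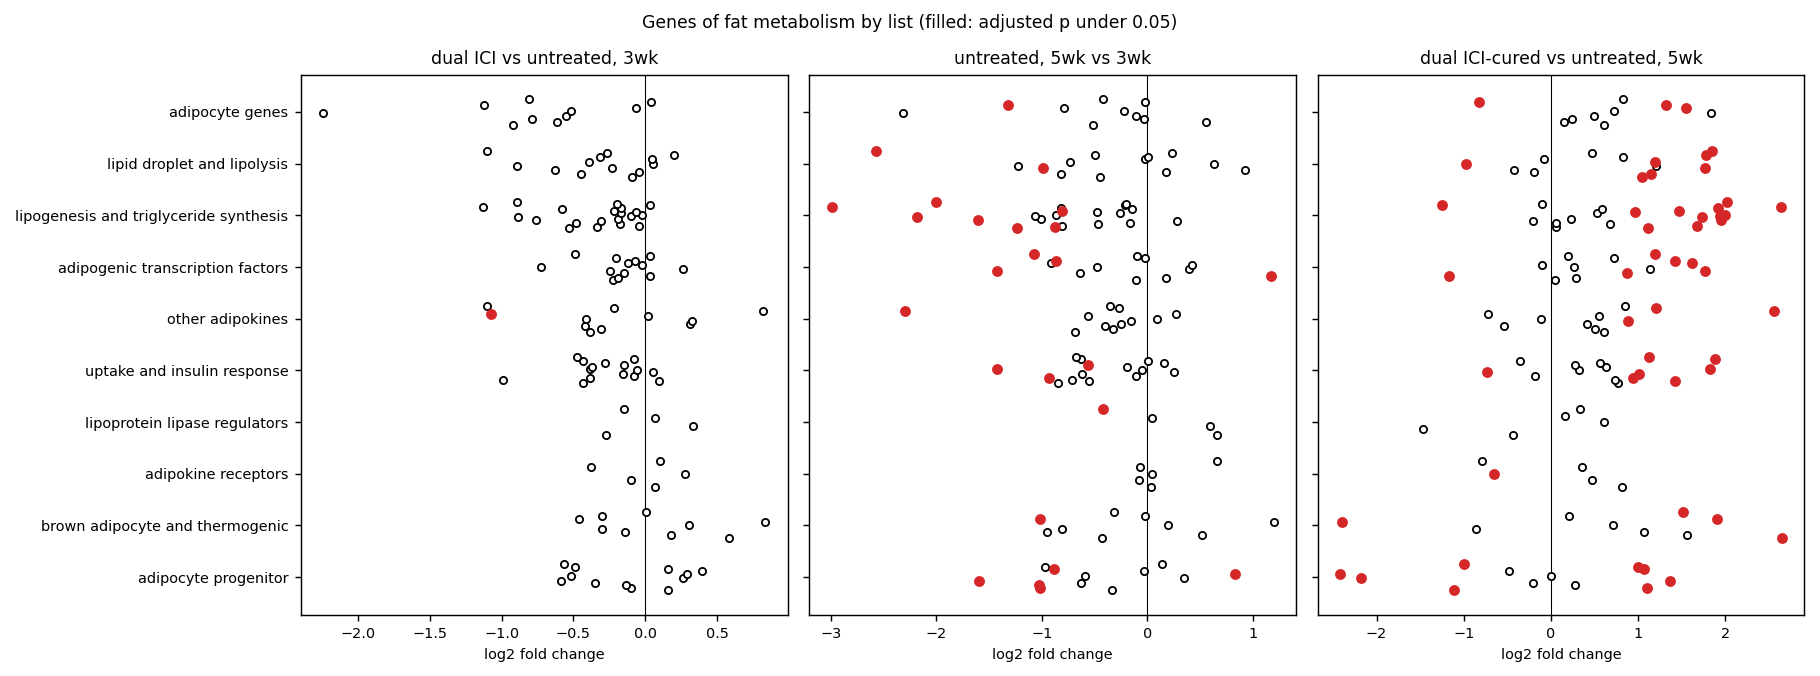
Fitted log2 fold changes of the adipocyte genes and of 9 lists of fat metabolism genes in 3 comparisons, 1 point per gene, filled where the edgeR adjusted p was under 0.05. For synthesis genes, 7 of 20 were called lower in untreated mice at 5wk against 3wk, and 11 of 20 higher in dual ICI-cured against untreated mice. Of all genes tested, 4.58% and 18% were called in these directions.

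Single antibodies at 5wk were compared with the same 5 untreated 5wk mice. No member was called for either antibody. With anti-PD1, Adipoq measured 110, 25.8, 24.9, 104 and 99.4 CPM, within reach of the untreated 25.2 to 113 CPM. The 10 log2 differences ranged from -0.02 to 0.52 with a median of 0.17. With 1 mouse left out, that median ran from -0.070 (without anti-PD1 mouse 5) to 0.49 (without untreated mouse 4), and it was below 0 also without anti-PD1 mouse 1 or untreated mouse 1. No gene of the table was called by edgeR (0%), and at an unadjusted p under 0.05 there was none of the 10 members against 1.31% of all genes, and DESeq2 called no member.

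Within the anti-PD1 group, mice 2 and 3 were the 2 lowest in 9 of the 10 genes, all but Pparg. For Lep, the values were 9.03, 1.28, 0.364, 5.37 and 10.1 CPM. Mouse 5 stood apart in Lpl and Pparg: it had 1526 CPM of Lpl against 294 to 636 CPM, and 11.2 CPM of Pparg against 27.2 to 30.3 CPM. Without mouse 5, the log2 difference of Lpl went from 0.44 to -0.088 and that of Pparg from 0.26 ± 0.24 to 0.44 ± 0.11. The latter had an unadjusted p of 0.00179 and an edgeR adjusted p of 0.995. The 4 other anti-PD1 mice then lay above all untreated mice in Pparg (19.6 to 22.7 CPM). Because mouse 5 was the lowest of its group in Pparg, leaving it out favours such a separation. The share of all genes that separate without mouse 5 was not counted, so no rise of Pparg is read from it. With untreated 5wk mouse 2 left out as well, no member was called.

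With anti-CTLA4, Adipoq measured 15.0, 88.9, 33.9 and 72.4 CPM, and Lep 0.208, 5.05, 0.694 and 4.56 CPM. Mouse 1 was the lowest of its group in 8 of the 10 genes. The log2 differences ranged from -0.73 ± 1.00 for Lep to 0.18 ± 0.15 for Pparg, with a median of -0.28, which ran from -0.65 (without anti-CTLA4 mouse 2) to 0.051 (without untreated mouse 4) when 1 mouse was left out. No gene of the table was called by edgeR (0%), no member had an unadjusted p under 0.05 against 0.811% of all genes, and none was called by DESeq2. No gene on the 9 lists of fat metabolism was called for either antibody.

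The dual ICI-uncured group at 5wk, whose mean was the lowest of the 7 groups for 9 of the 10 genes, was set against the same untreated mice, and no gene passed the test. Single mice of other groups were lower: anti-CTLA4 mouse 1 had 15.0 CPM of Adipoq, 0.208 CPM of Lep and 9.46 CPM of Plin1, below both uncured mice. Adiponectin measured 30.8 and 22.8 CPM, Lep 0.995 and 1.66 CPM, and Plin1 25.9 and 20.5 CPM, each within the untreated range or overlapping it. The log2 difference of Adipoq was -1.23 ± 0.54 (unadjusted p = 0.0478, edgeR adjusted p = 0.734), the only member with an unadjusted p under 0.05, against 4.87% of all genes. No gene of the table was called by edgeR (0%) and no member by DESeq2. Cfd, at 287 and 199 CPM, differed by -1.32 ± 0.69, and Lep by -1.69 ± 1.13. The median of the 10 was -0.97 against -0.01 over all genes, and 9 of 10 were below 0, as were 51.2% of all genes. With the replicate number as a block, Lep turned to 1.02 and the median of the 10 shrank, so both depend on that choice.

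Pparg ran the other way in the uncured mice. It measured 26.4 and 28.5 CPM, above all 5 untreated mice (19.6 to 22.7 CPM), with a log2 difference of 0.35 ± 0.16 (edgeR adjusted p = 0.734). Such separation upwards occurred in 9.22% of all genes. Muscle genes were low in both uncured mice, at 50846 and 72304 CPM, with a fitted value below 0 for all 22, and T cell genes were high, at 62.5 to 65.1 CPM against 21.6 to 37.1 CPM. Their part in the fat genes' values was not tested.

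The uncured contrast at 5wk was also set against the 3wk contrast, by the difference between them. The 5wk side held only the 2 uncured mice, and the 3wk side all 5 dual ICI mice, whose later outcome is not known. Time point and outcome therefore cannot be told apart in this difference. No member was called and none had an unadjusted p under 0.05, against 0% and 6.35% of all genes by edgeR. The differences ranged from -0.88 ± 0.48 for Lpl to 0.57 ± 1.10 for Lep.

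Set again against those 5 untreated mice, the dual ICI-cured mice differed in 3 of the 10 genes, in a comparison in which 44.7% of all genes were called. Perilipin 1 measured 105, 77.9 and 70.1 CPM, above the untreated 19.1 to 53.9 CPM, and rose by a log2 difference of 1.31 ± 0.33 (edgeR adjusted p = 0.0115). Lpl measured 1547, 1417 and 1483 CPM, above the untreated 291 to 854 CPM, and rose by 1.55 ± 0.39 (0.0114). Pparg measured 13.5, 10.9 and 11.4 CPM, below the untreated 19.6 to 22.7 CPM, and fell by 0.82 ± 0.14 on the log2 scale (edgeR adjusted p = 0.00173). The 2 members called higher and the 1 called lower compare with 18% and 26.7% of all genes, and groups did not overlap upwards in 20.3% and downwards in 26.9% of all genes.

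The secreted proteins overlapped between cured and untreated mice. Adiponectin measured 117, 82.2 and 83.1 CPM against 25.2 to 113 CPM, a log2 difference of 0.61 ± 0.42. Leptin measured 25.2, 13.5 and 6.59 CPM against 0.315 to 10.8 CPM, with 2 of 3 cured mice above all untreated mice, a log2 difference of 1.83 ± 0.85 (edgeR adjusted p = 0.103). Retn differed by 0.83, Lipe by 0.73, Fabp4 by 0.50, Cidec by 0.25 and Cfd by 0.15, none called. The median of the 10 was 0.67 against -0.05 over all genes, and it ran from 0.41 (without cured mouse 2) to 1.04 (without untreated mouse 4) when 1 mouse was left out. The call of Plin1 was lost without cured mouse 2 (adjusted p = 0.0509) and in the fit of all 29 libraries (0.0552). Without untreated mouse 2, Lep was called as well (2.57, adjusted p = 0.0189), and without untreated mouse 4, Lipe (1.09, 0.0439) and Retn (1.49, 0.0207).

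Of the 20 genes of fat synthesis, 11 rose and 1 fell in the cured mice, with a median log2 difference of 1.04 over the list. Over all genes, 18% were called higher and 26.7% lower. Scd1 rose by 2.64 ± 0.39 (edgeR adjusted p = 0.000859) and Thrsp, a gene of lipogenic tissues, by 2.01 ± 0.46 (0.00742), whereas Scd2 fell by 1.25 (0.0193). Of 13 droplet and lipolysis genes, 6 were called higher, led by Pnpla3 (1.85) and Plin5 (1.78), and Hilpda fell by 0.97. Of 13 transcription factors, 5 were called higher, led by Ebf2 (1.77) and Ppargc1a (1.62), and Cebpd fell by 1.16. Of 15 uptake and insulin response genes, 6 were called higher, led by Slc2a4, the insulin-responsive glucose transporter (1.88), and Irs1 (1.83), and Fabp5 fell by 0.73. Of these, Plin5, Ppargc1a, Slc2a4 and Irs1 are also expressed by skeletal muscle, and 22 of 22 muscle genes had a fitted value above 0 in this comparison, 6 of them called. The cured libraries had TMM factors of 0.698 to 0.730, against 0.791 to 1.20 in untreated mice, which raises their CPM. On unscaled totals, summed transcription factor (0.0657% to 0.0682%) and droplet genes (0.0885% to 0.0964%) of cured mice lay within the untreated range. Summed synthesis (0.328% to 0.453%) and uptake genes (0.156% to 0.175%) lay above it (up to 0.258% and 0.146%).

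Other secreted proteins were called higher for 3 of 11, led by Retnla (2.55) and Sfrp5 (1.21). Of 12 progenitor genes, 4 were called higher, led by Dpp4 (1.37) and Cd34 (1.10), and 4 lower, led by Icam1 (-2.42) and F3 (-2.18). The counts of these small lists stand beside 18% of all genes called higher and 26.7% called lower. Of 9 brown fat genes, 3 were called higher, led by Cox7a1 (2.65) and Ppara (1.91), both also of muscle, and Otop1 fell by 2.39. Of 5 receptor genes, Cap1 was called lower (-0.65), and of 5 genes acting on lipoprotein lipase none was called. The call of Scd2 was lost without any 1 of the 3 cured mice, that of Cebpd without cured mouse 3 and that of Fabp5 without cured mouse 3 or 4, with an adjusted p of up to 0.075. Without untreated mouse 2, 9 transcription factors and 5 brown fat genes were called higher, and without untreated mouse 4, 7 other secreted proteins.

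Within the dual ICI mice at 5wk, all 10 members differed between uncured and cured mice, without overlap, where 70% of all genes were called. The 9 genes other than Pparg were lower in the uncured mice, as were 33.1% of all genes, and separation downwards occurred in 37.4% and upwards in 43.7% of all genes. Leptin, at 0.995 and 1.66 CPM against 25.2, 13.5 and 6.59 CPM, had the largest difference, -3.51 ± 0.57 (edgeR adjusted p = 0.000565). Lpl, at 295 and 238 CPM against 1547, 1417 and 1483 CPM, followed with -2.51 ± 0.13 (1.13e-06). Resistin differed by -2.06, Plin1 by -1.89, Adipoq by -1.84, Lipe by -1.65, Fabp4 by -1.48, Cfd by -1.47 and Cidec by -1.20 (edgeR adjusted p of 0.000169 for Cidec).

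Of the other lists, 14 of 20 synthesis, 9 of 13 droplet and lipolysis, 10 of 13 transcription factor and 10 of 15 uptake genes were called lower in the uncured mice, and 1, 1, 1 and 2 higher. Over all genes, 33.1% were called lower and 36.9% higher.

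Pparg was again the exception, higher in uncured mice at 26.4 and 28.5 CPM against 13.5, 10.9 and 11.4 CPM, by 1.18 ± 0.13 (edgeR adjusted p = 6.42e-05), as were 36.9% of all genes. All 10 calls were made without any 1 of the 5 mice. In a fit of all 29 libraries, which carries the wider spread of the other groups, 8 were called, and Cidec (adjusted p = 0.0841) and Cfd (0.0872) were not. All 22 muscle genes were called lower and 18 of 20 gastric epithelium, 10 of 12 macrophage and 10 of 11 T cell genes higher in the uncured mice. The fat genes other than Pparg had the sign of the muscle genes, and Pparg that of the epithelial and immune ones. A shared sign is common here, as 33.1% of all genes were called lower and 36.9% higher. The part of these lists in the fat genes' values was not tested.

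With the 5 dual ICI mice at 5wk taken as 1 group, whatever their outcome, no member was called against untreated mice, and the log2 differences ranged from -0.28 to 1.16.

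**Figure D3:**
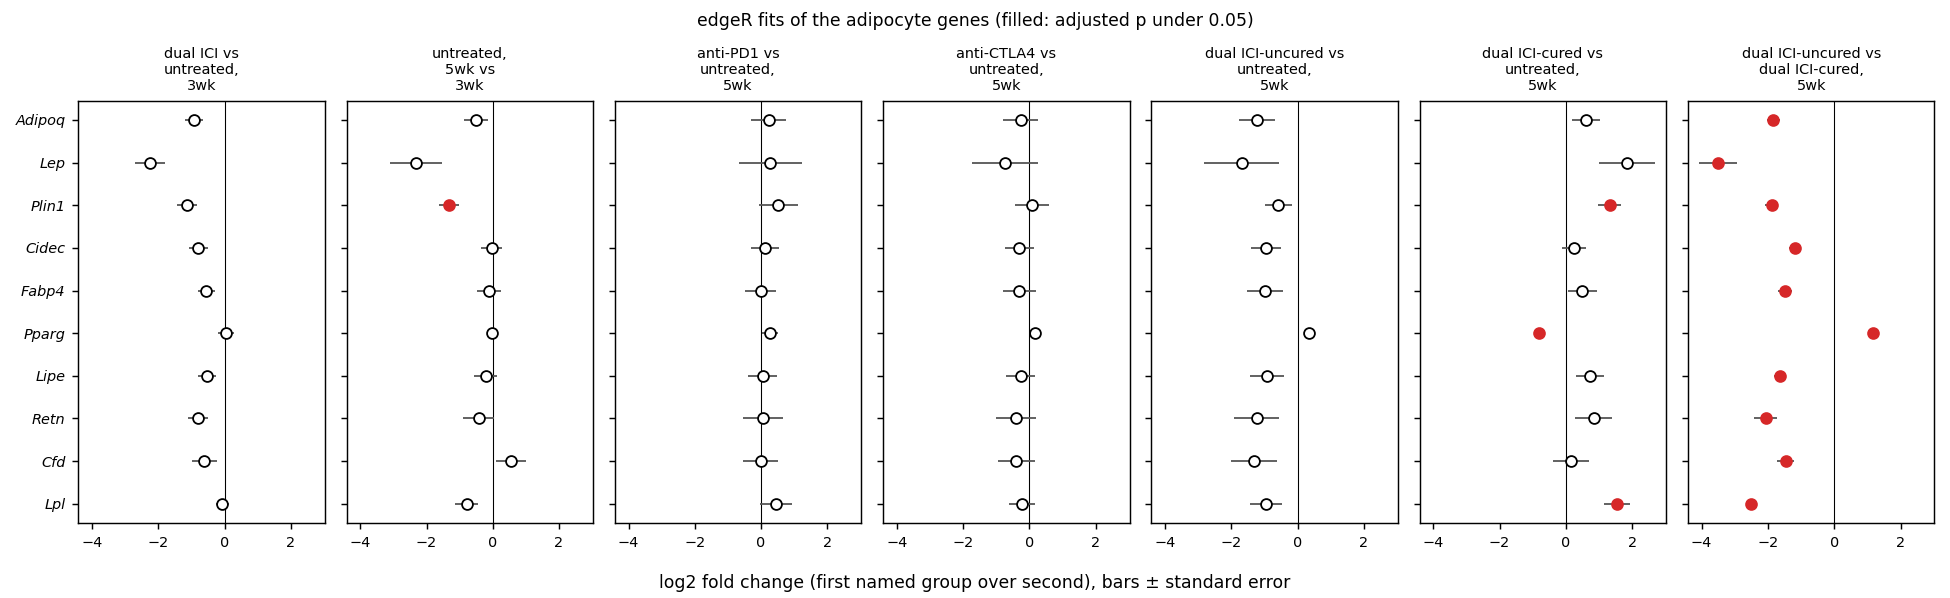
Fitted log2 fold change of each adipocyte gene in 7 comparisons, first named group over second, with bars of ± 1 standard error and filled points where the edgeR adjusted p was under 0.05. 1 gene was called for untreated 5wk against 3wk, 3 for dual ICI-cured against untreated and all 10 for dual ICI-uncured against -cured mice, with Pparg opposite to the other 9. Of all genes tested, 10.8%, 44.7% and 70% were called in these 3 comparisons.

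Each gene was also divided by Adipoq in the same library, which shows unequal change between the 2 genes. For genes that other tissues make as well, such as Lpl and Pparg, the ratio can also carry the make-up of the tissue. Leptin per adiponectin ran from 0.124 to 0.335 in untreated mice at 3wk and from 0.0125 to 0.13 at 5wk, with 1 mouse of 5 overlapping. In dual ICI mice at 3wk it was 0.063 to 0.137, and in cured mice 0.0793 to 0.216. Dual ICI-uncured mice, at 0.0323 and 0.0731, lay below the cured mice.

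The ratio of Plin1 to Adipoq differed between the time points in untreated mice. It was 0.824 to 1.17 in untreated mice at 3wk and 0.478 to 0.758 at 5wk, a separation downwards found for 0.173% of all genes. The anti-PD1 (0.421 to 0.762) and anti-CTLA4 mice (0.596 to 0.725) overlapped with the untreated 5wk mice. In the uncured (0.84 and 0.899) and the cured mice (0.844 to 0.947) it lay above all untreated 5wk mice, a separation upwards that 10% and 2.52% of all genes showed. For Cfd over Adipoq the order of the time points was the reverse, 4.31 to 5.30 at 3wk and 6.85 to 12.8 at 5wk. Cidec (0.722 to 0.97, then 1.00 to 1.58) and Fabp4 (2.17 to 2.92, then 3.02 to 3.67) separated upwards as well, against 4.83% of all genes. In untreated mice at 5wk, Plin1 was thus lower, and Cfd, Cidec and Fabp4 higher, relative to Adipoq than at 3wk, without overlap.

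Lpl over Adipoq was 6.41 to 11.6 in untreated 5wk mice and 13.3 to 17.9 in cured mice, without overlap, and 9.57 and 10.4 in uncured mice. Pparg over Adipoq was 0.115 to 0.137 in cured and 0.197 to 0.901 in untreated 5wk mice, and anti-PD1 mouse 5 had 0.113. This separation downwards was shared by 27.7% of all genes. Between uncured and cured mice, Lep and Lpl were lower relative to Adipoq, against 3.7% of all genes, and Cidec, Fabp4, Pparg and Cfd higher, against 86.8%. At 3wk, only Fabp4 over Adipoq separated, 2.93 to 3.45 in dual ICI against 2.17 to 2.92 in untreated mice, and 26% of all genes did so.

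**Figure D4:**
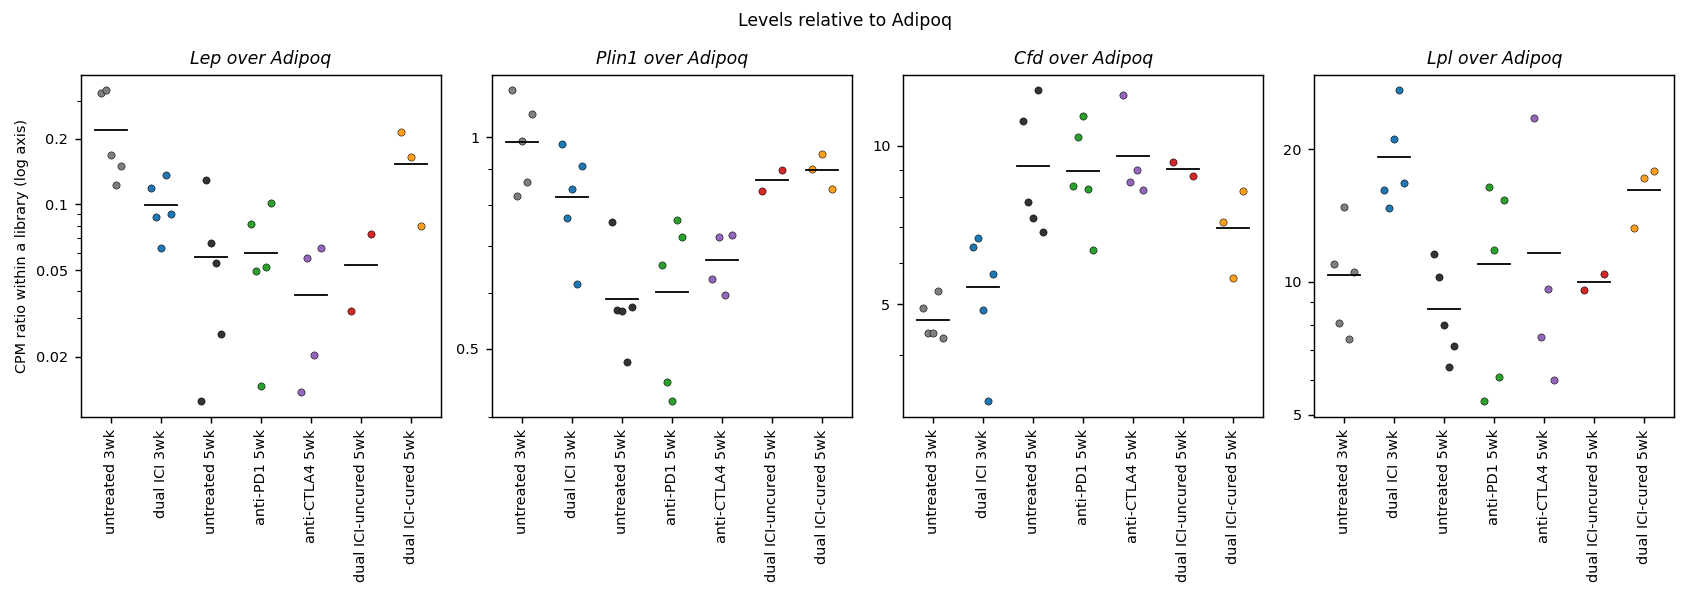
Ratio of Lep, Plin1, Cfd and Lpl to Adipoq within each library, log axes, 1 point per mouse and a bar at the group mean. Plin1 over Adipoq was lowest at 5wk in untreated and monotherapy mice (0.421 to 0.762) and did not overlap between untreated mice at 3wk and 5wk.

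The fat genes other than Pparg and the muscle genes differed the same way between the cured and the uncured mice. The 10 genes summed to 686 to 864 CPM in the uncured mice, where muscle genes were low, and to 2463 to 3317 CPM in the cured mice, where they were high. Lpl, which muscle also makes, and Cfd made up most of these sums. Lpl averaged 266 CPM in uncured and 1483 CPM in cured mice, and Cfd 243 and 659 CPM. At 3wk, where 9 of the 10 genes had a fitted value below 0, the 22 muscle genes had a median log2 difference of 0.086 and none was called. The 4 libraries highest in muscle genes, the cured mice and anti-PD1 mouse 5, had 82.2 to 117 CPM of Adipoq, while untreated 3wk mouse 2 had 138 CPM of Adipoq with fewer muscle reads. The same 4 libraries were the highest in Lpl and the lowest in gastric epithelium genes, at 140 to 221 CPM, and they held 4 of the 5 lowest values of Pparg, dual ICI mouse 1 at 3wk (13.4 CPM) holding the other. Which tissue the Lpl and Pparg reads came from was not tested.

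**Figure D5:**
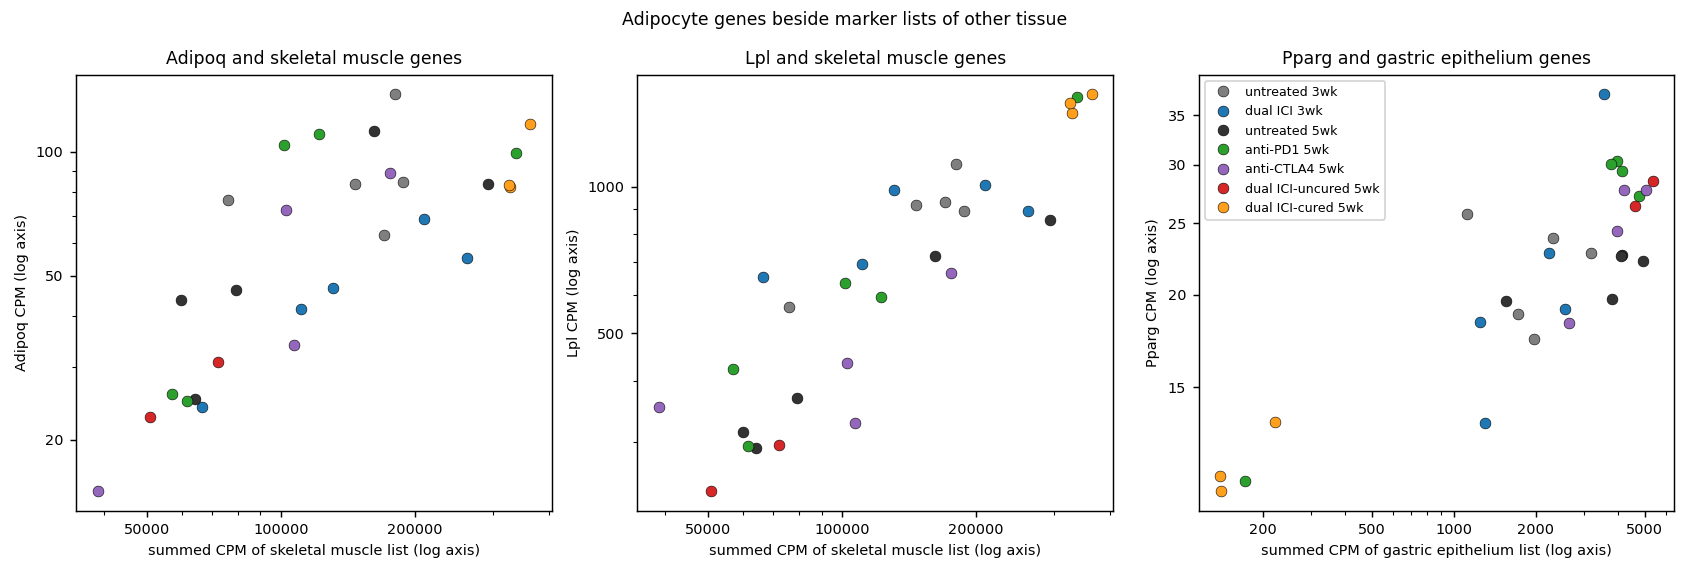
Adipoq and Lpl against the summed CPM of 22 skeletal muscle genes, and Pparg against that of 24 gastric epithelium genes, log axes, 1 point per library and a colour per group. The 3 cured mice and anti-PD1 mouse 5 form a group apart, with 1417 to 1547 CPM of Lpl and 10.9 to 13.5 CPM of Pparg.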

How the data were processed

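The deposited file holds raw counts per gene, with no normalization, which the authors made from 150 bp paired-end reads. The submitters' processing notes name STAR 2.7.0f, featureCounts 1.6.4 and the mm10 build, the methods describe another counter, and the annotation, the strand setting and so the share of Lipe reads from an overlapping antisense gene (4732471J01Rik) are not given in the sources used here. Every library is 1 mouse, so p-values measure the spread between mice. Groups came from the labels and from reading the number in the title of dual ICI 5wk libraries as the mouse number. All 29 count columns were used. The genes and all gene lists were chosen with earlier results of these data known, so they are no independent support for a direction.

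Levels are CPM on library sizes scaled by TMM over all 29 libraries. Each comparison was fitted in edgeR 4.0.16 (R 4.3.3) on the 2 groups compared alone, with filterByExpr, TMM, the quasi-likelihood test (two-sided) and Benjamini-Hochberg adjustment over all genes tested. A gene was called at an adjusted p under 0.05. The difference between time points was fitted as a contrast over 4 groups. log2 CPM used a prior count of 2. In each list, up to 2 genes per direction with the largest called differences are named, with the 8 genes most like the mean of the 10 among those with a mean log2 CPM of at least 1. A few more genes are named where their call was the only one of a list. The code was tested on simulated counts with 200 genes changed 4-fold. Alternatives were DESeq2 1.42.0, other scalings (RLE, upper quartile), no filter, counts stripped of muscle genes, the replicate number as a block, 1 fit over the 29 libraries together, 5 dual ICI mice as 1 group and leaving out each mouse. Depth was 25989217 to 31219650 counts. Start regions are RefSeq's for GRCm38.p6, and gene positions GENCODE's.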

Additional observations from a re-analysis of the deposited data

Results flagged for a closer look

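Within groups of 4 or 5 mice, 50 sets of values of the 10 genes were examined for a highest or lowest mouse far from the rest, for which chance alone gives about 1 in 20. In 3 of the 50 the gap was large. Adipoq was 138 CPM in untreated 3wk mouse 2, the next mouse having 84.5 CPM. Pparg was 11.2 CPM in anti-PD1 mouse 5, the next having 27.2 CPM, and Lpl was 1526 CPM in the same mouse, the next having 636 CPM. That library held 172 CPM of gastric epithelium genes and 337922 CPM of muscle genes, the lowest and the highest of its group.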

How the results depend on the processing

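Under the alternatives, 273 counts of calls, medians, group levels and correlations with Adipoq stayed the same, 4 moved, 5 became stronger and 5 weaker. Here the same means a count near that of the main fit, or an unchanged sign of a correlation. For a median or level it means a shift smaller than the standard deviation between mice. For dual ICI against untreated at 3wk, where no member was called, DESeq2's Wald test called 3 (Lep, Plin1, Adipoq) and the fit with the replicate number as a block called 4 (those and Cidec, at an edgeR adjusted p of up to 0.043), while leaving out any 1 mouse gave 0 each time, with medians of -0.85 to -0.50. For untreated mice at 5wk against 3wk, DESeq2 called 2 (Lep, Plin1), the fit of all 29 libraries called 0, and leaving out 1 mouse gave 0 to 3. For cured against untreated mice, leaving out 1 mouse gave 2 to 5, with medians of 0.41 to 1.04. Under the block, the median for uncured against untreated mice moved from -0.97 to -0.12 and Lep turned from -1.69 to 1.02, and Lpl lost its call for cured against untreated mice (adjusted p = 0.0501). With 1 mouse left out, Cfd ranged from -0.074 (without untreated 5wk mouse 4) to 0.74 for 5wk against 3wk, and Lpl from -0.088 (without anti-PD1 mouse 5) to 0.72 for anti-PD1. The causes were not tested. The summed level of the 10 genes in cured mice, 2870 CPM, was 3367 CPM with muscle genes left out of the library sizes and 2054 CPM on unscaled totals, and that of uncured mice, 775 CPM, was 937.5 CPM on unscaled totals. Over the named genes' fold changes and the lists' counts of called genes together, 1539 cases stayed the same and 53 became stronger. A further 147 became weaker and 3 turned direction. For a list, the same means a count near that of the main fit. Same-numbered mice correlated at r of -0.65 to 0.64 in their deviations from the group means, and 6 of 22 mice correlated best with their own number. With so few mice, these values cannot decide whether the numbers pair the mice, and the labels state no pairing. Most dual ICI 3wk libraries carry another number in their column name than in their title. The title numbers, which the block used, are thus a renumbering in that group and give no ground for pairing at 3wk. No paired analysis was possible for uncured against cured mice because these groups share no number. An analysis added after the data were seen, without anti-PD1 mouse 5 and untreated 5wk mouse 2, called no member for anti-PD1. Groups of 2 and 3 mice and the few reads of Lep limit precision.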
